A study of Mus musculus with 6 samples.

Results

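The 6 conventional actin genes of the mouse, Actc1, Acta1, Acta2, Actg2, Actb and Actg1, were taken by their symbols from a table of reads counted on 23337 genes, and 6 of 6 were found. All 6 also passed the filter on low counts. The table was made from wildtype mice that received an adeno-associated virus of serotype 9 (AAV9) at P1, at 5e8 vg per g. The vector was AAV9-cTNT-SRF-2A-GFP in the SRF-OE group and AAV9-cTNT-GFP in the GFP control group. Both groups therefore carried GFP under the cardiac troponin T (cTNT) promoter, which is active in cardiomyocytes (CMs), and both were sampled at P14 as GFP+ CMs purified by flow cytometry from hearts with mosaic transduction. The comparison addressed how raised SRF changes the transcriptome of maturing CMs. The labels list 3 biological replicates per group, but the table's column under the name of the first SRF-OE library gives the length of each gene, with 0 zeros, so 5 columns of counts remained, which by their names are 2 SRF-OE and 3 GFP libraries. The column of gene symbols is headed Chr, so its name does not match its content either. Whether the names are displaced by 1 column could not be settled from the table. If they are, each count column belongs to the name before it, the column named GFP1 is an SRF-OE library, and the groups are 3 SRF-OE and 2 GFP libraries. P-values set a difference between groups against the spread between these libraries. For fitted changes of single genes, that spread is estimated with help from other genes.

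Actins are the proteins of the thin filament and of the cytoskeleton, and the 6 genes encode nearly identical proteins that are named after the tissues where each prevails. Actc1 is the cardiac and Acta1 the skeletal muscle form of the sarcomere, and both are expressed in heart muscle. Acta1 is known as a gene of the fetal and the stressed heart. Acta2 and Actg2 are the vascular and enteric smooth muscle forms, and Actb and Actg1 are the cytoplasmic forms found in every cell. SRF (serum response factor) is a transcription factor that binds the CArG box, a run of A and T bases between CC and GG, and muscle and cytoplasmic actin genes are classical SRF targets. SRF is itself tied to actin, because actin monomers hold back its coactivators of the myocardin-related family.

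Promoters from RefSeq (GRCm38.p6), from 250 bases before to 50 bases after the gene start, were available for 4 of the 6 genes, and the CArG box was searched before the start, on both strands at once since its pattern reads the same on either. A full CArG box was present in 3 of these 4 genes, Acta1, Actc1 and Actg1, against 482 of 32851 RefSeq promoters (1.47%). When 1 inner base was allowed to deviate, Acta2 also had 2 boxes, against 2823 promoters (8.59%) with a box of either kind. A match to these letters is a description of the sequence and not of SRF binding. The start used is that of RefSeq, and GENCODE M21 places some starts elsewhere. All boxes of Acta2 and Actc1 lie inside the GENCODE gene spans given below. GENCODE exons overlapped the 120 bases before the RefSeq start by 120 bases in Acta2, 12 in Actc1 and 47 in Actg1. The boxes are shown because they match, in full or with 1 deviating base, the motif that SRF is known to bind, each on the minus strand with 10 bases on either side and the box in capitals.
Acta1, full box from -73 to -64, chr8:123894829-123894858: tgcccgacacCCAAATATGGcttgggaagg
Actc1, full box from -47 to -38, chr2:114052903-114052932: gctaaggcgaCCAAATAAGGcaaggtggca
Actg1, full box from -90 to -81, chr11:120348566-120348595: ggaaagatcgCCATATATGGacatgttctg
Acta2, deviating box from -84 to -75, chr19:34255438-34255467: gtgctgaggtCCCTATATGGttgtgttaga
Acta2, deviating box from -34 to -25, chr19:34255388-34255417: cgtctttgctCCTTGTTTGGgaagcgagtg
Acta1 had 2 further deviating boxes, which start at -205 and -154, and Actc1 had 3, which start at -175, -138 and -87. Acta1 varied most among the abundant members, and the 120 bases before its start (chr8:123894776-123894895, minus strand, no annotated exon) are therefore shown with the full box in capitals.
Acta1 promoter: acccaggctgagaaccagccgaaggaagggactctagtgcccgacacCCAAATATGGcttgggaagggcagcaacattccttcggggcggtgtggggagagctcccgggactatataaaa

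Depth was 14137433 to 23159631 counted reads per library. Levels are given as CPM (reads relative to library size, scaled with edgeR's TMM factors) within a gene and as TPM (which also divides by gene length) between genes. The overexpressed gene, Srf, counted here with its transgene, was at 360 CPM and 748 CPM in SRF-OE replicates 2 and 3, and at 338, 67.3 and 85.1 CPM in the libraries labelled GFP1, GFP2 and GFP3. The library labelled GFP1 thus went against its label. No library was moved to another group. The log2 fold changes of Srf and the actin genes are given with all 5 libraries as labelled and with the 4 left without GFP1. The groups of those 4 are the same whether or not the names are displaced. The log2 fold change of Srf was 1.76 (SE 0.71, adjusted p = 0.357) with 5 libraries and 2.87 (SE 0.37, adjusted p = 0.0442) with 4, by the quasi-likelihood test of edgeR. Because GFP1 was singled out by its Srf level, the 4-library value cannot serve as a test of Srf. Markers of the labelled cell type were abundant, with Myh6, the main myosin of the heart, at a mean of 50800 CPM, and 9 CM markers together reached 78125 and 82290 CPM in SRF-OE and 84724 to 122663 CPM in GFP. Xist marked SRF-OE replicate 2 and GFP2 as female, and 4 Y-linked genes marked SRF-OE replicate 3, GFP1 and GFP3 as male.

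With 5 libraries, edgeR called 0 of the 6 actin genes higher in SRF-OE and 0 lower (adjusted p under 0.05). In that fit 0% of all 13754 genes tested were called in either direction, and at an unadjusted p under 0.05 also 0 of the 6 actins were called, against 6.35% of all genes higher and 7.59% lower. DESeq2 called 0 actins higher and 2 lower, Acta2 and Actc1. Of the 1167 genes that it gave an adjusted p, it called 0.943% higher and 18.3% lower. DESeq2 on the 4 libraries without GFP1 called Acta1 higher and Acta2 and Actc1 lower, against 6.29% and 6.14% of the 13559 genes that it gave an adjusted p. In the same 4 libraries, edgeR called 0 actins higher and 1 lower, Acta2, against 1.98% of the 13397 genes tested higher and 0.97% lower. At an unadjusted p under 0.05 these 4 libraries had 1 actin higher, Acta1, and 2 lower, Acta2 and Actc1, where 14.4% of all genes were higher and 14% lower. As labelled, 0 actins had both SRF-OE values above all GFP values, as 16.1% of genes did, and 1, Actc1, had both under them.

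Actc1 (chr2:114047282-114053548 of GRCm38, minus strand), the cardiac actin of the thin filament, was the most abundant transcript by TPM in 5 of 5 libraries. SRF-OE replicates 2 and 3 had 20084 and 14732 CPM. The GFP libraries were at 20704 (GFP1), 29237 (GFP2) and 32187 CPM (GFP3). Both SRF-OE libraries lay under all 3 GFP libraries, as did 17.3% of all genes tested, but the library labelled GFP1 was only just above SRF-OE replicate 2. SRF-OE averaged 17408 ± 3785 CPM (SD, n = 2), and GFP 27376 ± 5963 CPM (SD, n = 3). The log2 fold change was -0.65 (SE 0.36, 95% interval -1.52 to 0.21, adjusted p = 0.426) with 5 libraries and -0.81 (SE 0.30, interval -1.55 to -0.08, adjusted p = 0.145) without GFP1, so neither passed the test. Within the sexes, SRF-OE replicate 2 was lower than the female GFP2 by a log2 difference of -0.54, and SRF-OE replicate 3 lower than the mean of the male GFP1 and GFP3 by -0.81. The CM markers moved alongside, with 8 of 9 having a negative log2 fold change and 0 of 9 called in either fit, and their part in the difference was not tested. In bulk samples like these, fewer CMs and less RNA per CM cannot be told apart.

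Acta1 (chr8:123891769-123894751, minus strand), the skeletal muscle actin, differed most between libraries. SRF-OE replicates 2 and 3 had 2673 CPM (46240 reads) and 12358 CPM (282664 reads). Acta1 was at 7730 CPM (162667 reads) in the library labelled GFP1, and at 442 CPM (9631 reads) and 842 CPM (10662 reads) in GFP2 and GFP3. The 3 libraries with the most Srf were also the 3 with the most Acta1, although GFP1 had less Srf but more Acta1 than SRF-OE replicate 2. Relative to the mean of GFP2 and GFP3, Acta1 was 4.17-fold in SRF-OE replicate 2, 19.3-fold in SRF-OE replicate 3 and 12.0-fold in the library labelled GFP1. By TPM it ranked 2nd of all genes in SRF-OE replicate 3, 10th in GFP1 and 29th in SRF-OE replicate 2, but 214th in GFP2 and 139th in GFP3. Among 8523 genes with a mean of at least 10 CPM, 30 had a wider range over the 5 libraries than its log2 range of 4.81.

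The groups as labelled overlapped for Acta1, at 7515 ± 6848 CPM (SD, n = 2) for SRF-OE and 3005 ± 4097 CPM (SD, n = 3) for GFP. The log2 fold change over 5 libraries was 1.32 (SE 1.22, 95% interval -1.60 to 4.25, adjusted p = 0.613). Without GFP1 it was 3.56 (SE 0.77, interval 1.67 to 5.44, adjusted p = 0.0607), the 104th highest of 13397 genes and did not pass the cutoff. In those 4 libraries both SRF-OE values lay above both GFP values, as in 31.3% of all genes. The 5-library value also rested on SRF-OE replicate 3, without which it was -0.18. Within the sexes the log2 difference was 2.60 for the female pair, and for the males 2.28 with GFP1 and 3.88 without it.

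**Figure D1:**
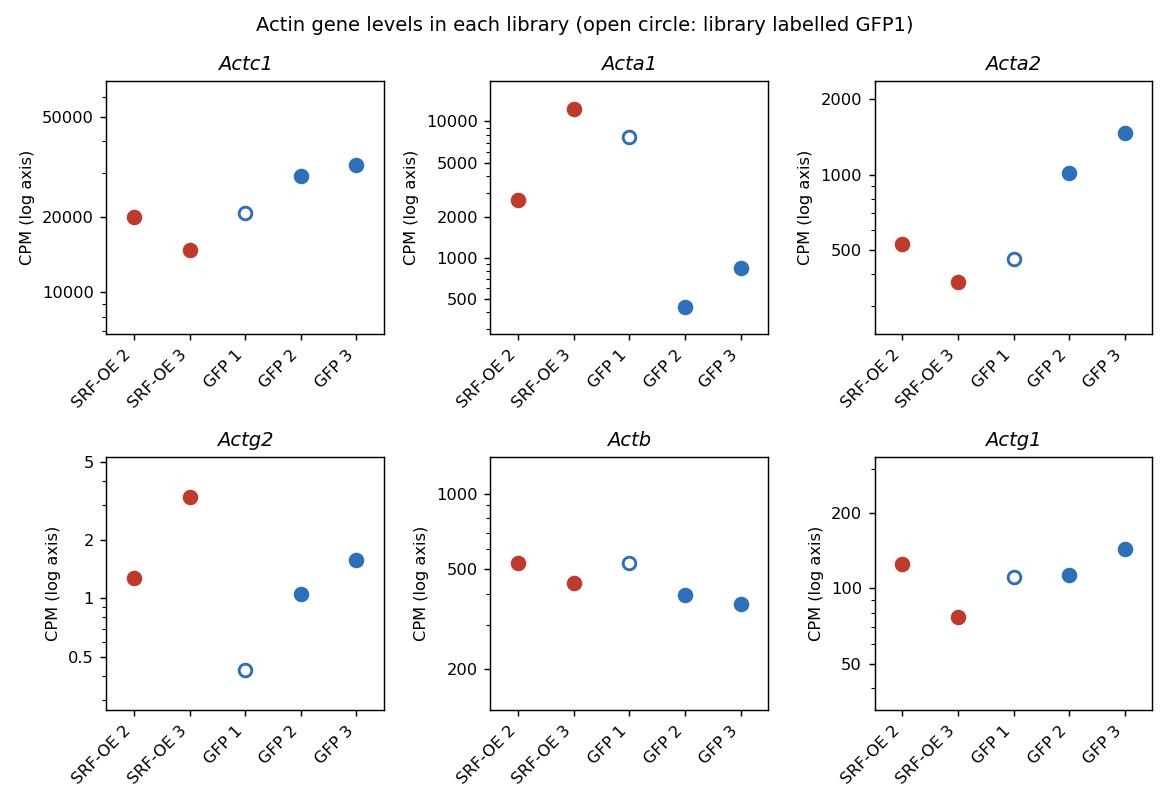
Level of each actin gene in each library in CPM on a log axis, 1 panel a gene and 1 point a library, SRF-OE in red and GFP in blue, with the library labelled GFP1 as an open circle. Acta1 spans 442 to 12358 CPM with GFP1 among the high libraries, Actc1 and Acta2 are lowest in the SRF-OE libraries and GFP1, and Actb and Actg1 vary least.

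Although both striated muscle actins differed between libraries, their summed share of all counted reads differed little. These shares are not scaled with the TMM factors, which were higher in SRF-OE replicates 2 and 3 (1.087 and 1.075) than in each GFP library. On the CPM scale, which uses these factors, the sum was lower in both SRF-OE libraries than in every GFP library. The steady sum therefore holds for unscaled shares only. Acta1 and Actc1 together took 2.47% and 2.91% of all counted reads in SRF-OE replicates 2 and 3, and 2.88%, 2.79% and 2.96% in GFP1, GFP2 and GFP3. In these shares the groups overlapped, with means of 2.69% ± 0.31 (SD, n = 2) and 2.88% ± 0.083 (SD, n = 3). The difference was -0.19 percentage points (exact two-sided permutation p = 0.5, adjusted p = 0.545). SRF-OE replicate 2 alone was low, and without it the difference was 0.032 points. Within the sum, Acta1 took 0.290% and 1.33% of all reads in the SRF-OE libraries, 0.783% in GFP1, and 0.0416% and 0.0754% in GFP2 and GFP3, while Actc1 took 2.18% and 1.58%, then 2.10%, 2.75% and 2.88%. The library with the most Acta1 was the one with the least Actc1. Counting error was small beside these differences, with 95% Wilson intervals that reached at most 0.0088 percentage points to either side of the sum, and such intervals cover counting error only.

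**Figure D2:**
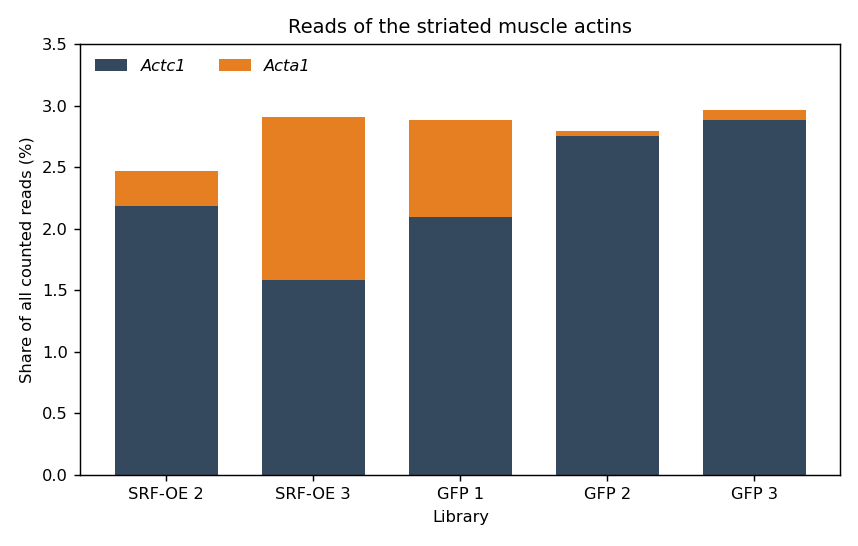
Share of all counted reads, in percent, taken by Actc1 (dark) and Acta1 (orange), stacked for each library. The height of the bars stays between 2.47% and 2.96% while the Acta1 part runs from 0.0416% in GFP2 to 1.33% in SRF-OE replicate 3.

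Per gene length, Actc1 made up most of the actin signal, here the reads per kilobase summed over the 6 genes. Its share was 85.2% and 53.8% in SRF-OE replicates 2 and 3, 71.3% in the library labelled GFP1, and 94.8% and 93.2% in GFP2 and GFP3. Acta1 made up 11.0%, 43.8%, 25.8%, 1.39% and 2.36% in the same order. Thus GFP2 and GFP3 had almost only Actc1, and the other 3 libraries a mixture of both striated actins. As labelled, the Acta1 share averaged 27.4% ± 23.2 (SD, n = 2) in SRF-OE and 9.86% ± 13.8 (SD, n = 3) in GFP (exact permutation p = 0.4, adjusted p = 0.533). Without GFP1 the groups did not overlap, with GFP at 1.88% ± 0.69 (SD, n = 2), but 2 libraries against 2 cannot give an exact p under 0.333.

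The ratio of Acta1 to Actc1 per length, which does not depend on library scaling, was 12.9% and 81.4% in SRF-OE, 36.2% in GFP1, and 1.47% and 2.54% in GFP2 and GFP3. On the log2 scale the SRF-OE mean was higher by 2.66 with 5 libraries (exact permutation p = 0.3, adjusted p = 0.533) and by 4.07 with 4 (exact p = 0.333). It rested on SRF-OE replicate 3 too, without which the ratio was higher by 1.33 and the Acta1 share by 1.14 percentage points, against 17.5 points with 5 libraries. In all, 12 shares and ratios were compared, two-sided, and none had an adjusted p under 0.533 with 5 libraries or under 0.444 with 4, where the smallest p that exact permutation allows is 0.1 for 2 against 3. The relation between the striated actins was therefore large in size, but the libraries as labelled did not separate by group.

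**Figure D3:**
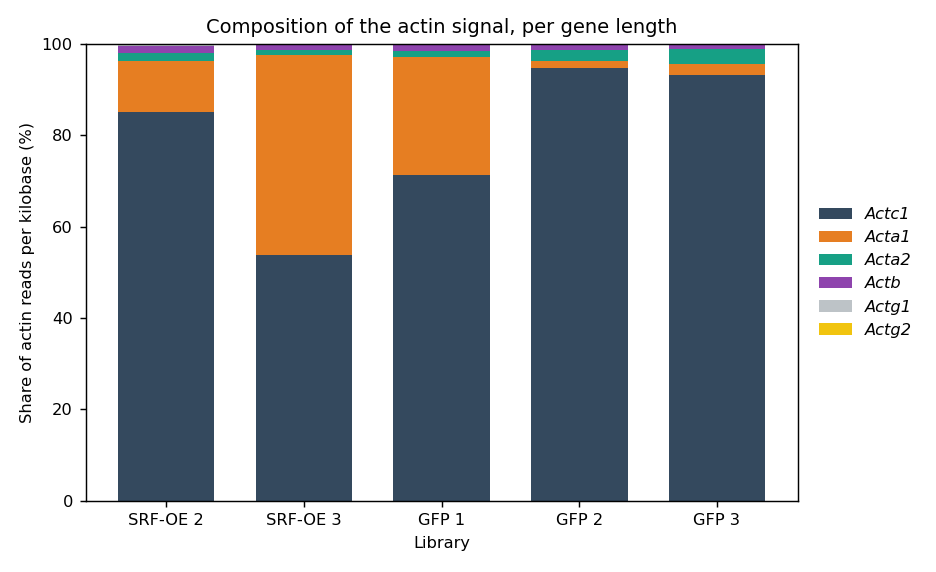
Composition of the actin signal in each library, as the percentage of actin reads per kilobase held by each of the 6 genes. Actc1 falls from over 93% in GFP2 and GFP3 to 53.8% in SRF-OE replicate 3, with Acta1 taking up nearly all of the remainder, and the other 4 genes stay thin bands.

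Acta2 (chr19:34241090-34255590, minus strand), the vascular smooth muscle actin, is also known in fibroblasts turned contractile and in immature CMs. It was at 530 and 372 CPM in SRF-OE replicates 2 and 3, at 463 CPM in GFP1, and at 1018 and 1464 CPM in GFP2 and GFP3. GFP1 fell between the SRF-OE values, and GFP2 and GFP3 were the 2 high libraries. SRF-OE averaged 451 ± 112 CPM (SD, n = 2) and GFP 981 ± 501 CPM (SD, n = 3), with a log2 fold change of -1.12 (SE 0.47, 95% interval -2.24 to 0.0016, adjusted p = 0.358). Without GFP1 it was -1.45 (SE 0.26, interval -2.08 to -0.82, adjusted p = 0.0499), the 87th lowest of 13397 genes, so Acta2 fell in the 4 libraries, where 29.8% of all genes had both SRF-OE values under both GFP values. That call was narrow: with upper quartile scaling the adjusted p was 0.0595, and with at least 10 counts in every library 0.0600. Within the sexes the log2 difference was -0.94 for the female pair and -1.15 for the males, or -1.98 for the males without GFP1.

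Acta2 took 1.76% and 1.06% of the actin signal in SRF-OE, 1.24% in GFP1, and 2.58% and 3.31% in GFP2 and GFP3. Relative to Actc1 it was at 2.06% and 1.97% in SRF-OE and at 1.75%, 2.72% and 3.55% in GFP, a log2 difference of -0.35 with 5 libraries (exact permutation p = 0.5) and -0.62 with 4 (exact p = 0.333). Other genes listed as smooth muscle markers moved in both directions, most of them opposite to Acta2. The 7 markers of that list summed to 796 and 884 CPM in SRF-OE and 690 to 874 CPM in GFP, and none was at 0 in all libraries. Most of each sum was Smtn (372 and 247 CPM in SRF-OE, 335 to 439 CPM in GFP) and Myocd (275 and 419 CPM, 205 to 236 CPM). The sum therefore mainly follows these genes. In either fit 5 of 7 had a positive log2 fold change, and 2 of 7, Smtn and Synpo2, a negative one. Tagln, an actin-binding protein of smooth muscle, was at 36.2 and 83.5 CPM in SRF-OE and at 20.2, 6.15 and 10.0 CPM in GFP, and rose by a log2 fold change of 2.92 without GFP1 (adjusted p = 0.0473). Synpo2, which binds actin at the Z-disc, fell in the same fit by 0.82 (adjusted p = 0.0484), while Smtn, the most abundant of the list, had a log2 fold change of -0.32 and Lmod1, the scarcest, one of 1.10, both uncalled. As labelled, the 5 libraries gave 2.30 for Tagln and -0.73 for Synpo2, also uncalled.

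Actg2 (chr6:83512905-83536265, minus strand), the enteric smooth muscle actin, was barely detected, with 22 and 76 reads in SRF-OE and 9, 23 and 20 reads in GFP. This was 1.27 and 3.32 CPM against 0.428, 1.06 and 1.58 CPM, with SRF-OE replicate 3 highest and the library labelled GFP1 lowest. The log2 fold change was 1.21 (SE 0.64, 95% interval -0.33 to 2.76, adjusted p = 0.418) with 5 libraries and 0.85 (SE 0.57, adjusted p = 0.373) with 4, and without SRF-OE replicate 3 it was 0.34, so no difference was detectable at this depth. Its share of the actin signal was 0.0057% and 0.0128% in SRF-OE and 0.00156% to 0.00483% in GFP, and it was the 1 share among 6 whose groups did not overlap with 5 libraries (exact permutation p = 0.1, the smallest possible, adjusted p = 0.533).

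Actb (chr5:142903115-142906754, minus strand), a cytoplasmic actin often used as a reference gene, varied least. It was at 528 and 439 CPM in SRF-OE, at 528 CPM in GFP1, and at 397 and 365 CPM in GFP2 and GFP3. The library labelled GFP1 matched SRF-OE replicate 2, and GFP2 and GFP3 were the lowest. The log2 fold change was 0.17 (SE 0.20, 95% interval -0.31 to 0.65, adjusted p = 0.696) with 5 libraries and 0.35 (SE 0.15, interval -0.011 to 0.71, adjusted p = 0.187) without GFP1, and it was 0.029 without SRF-OE replicate 2. Of the 8523 genes compared, 3782 had a wider range than the log2 range of 0.53 of Actb, so genes with a steadier level were common.

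Actg1 (chr11:120345690-120348542, minus strand), the other cytoplasmic actin, was at 125 and 76.6 CPM in SRF-OE and at 111, 113 and 143 CPM in GFP1, GFP2 and GFP3. SRF-OE replicate 3 was low and the other 4 libraries lay close together. The log2 fold change was -0.28 (SE 0.23, 95% interval -0.84 to 0.28, adjusted p = 0.581) with 5 libraries and -0.34 (SE 0.25, interval -0.95 to 0.28, adjusted p = 0.416) with 4, and without SRF-OE replicate 3 it was 0.026. The level of Actg1 is uncertain, because only 43.3% of all stretches of 50 bases in its transcript occur in no other gene of the annotation, and 45.5% of those of 75 bases. Most of the others are shared with processed pseudogenes, Gm12715 among them with 51.1% of its stretches of 50 bases. For Actb 85.8% of such stretches were its own, and for each of the 4 muscle actins at least 97.8%, so reads of the muscle actins are largely distinct.

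Actb and Actg1 moved apart without passing a test. The log2 ratio of Actb to Actg1 per length was 2.08 and 2.52 in SRF-OE and 2.25, 1.81 and 1.36 in GFP1, GFP2 and GFP3, a difference of 0.49 (exact permutation p = 0.3) with 5 libraries and 0.72 with 4 (exact p = 0.333). Cytoplasmic actin was 2.12% and 1.42% of striated actin in SRF-OE, and 1.67%, 1.26% and 1.13% in GFP, a log2 difference of 0.38 (exact p = 0.3), or 0.54 without GFP1 and 0.088 without SRF-OE replicate 2. SRF-OE replicate 2 was highest in this ratio, and it was also highest for endothelial markers (656 CPM summed over 7 genes, against 251 to 506 CPM in the other libraries), fibroblast markers (821 CPM over 8 genes, against 307 to 441 CPM) and leukocyte markers (30.4 CPM over 5 genes, against 9.63 to 22.2 CPM), cells in which the cytoplasmic actins prevail. The part of those cells in the ratio was not tested. Pericyte markers summed to 618 and 530 CPM in SRF-OE and 520 to 683 CPM in GFP. The largest part of each sum was Abcc9, at 323 and 260 CPM in SRF-OE and 357, 393 and 377 CPM in GFP1, GFP2 and GFP3. Abcc9 was the 1 pericyte marker with a negative log2 fold change (-0.37 with 5 libraries), and the other 5 were positive. The sum thus hides the direction of most of its members.

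Across the 6 genes, the order of levels by TPM set the libraries apart. In GFP2 and GFP3 the order was Actc1 (38423 and 40945 TPM), Acta2 (1045 and 1454), Acta1 (563 and 1039), Actb (384 and 342), Actg1 (109 and 133) and Actg2 (1.47 and 2.12). In both SRF-OE libraries and in GFP1, Acta1 stood second, at 3875, 18244 and 10277 TPM, after Actc1 at 30011, 22422 and 28376 TPM. Acta2 and Actb were next and did not differ beyond their spread in SRF-OE, at 530 ± 125 and 536 ± 62.9 TPM (SD, n = 2), so that Actb stood above Acta2 in SRF-OE replicate 3 and GFP1 but not in SRF-OE replicate 2. Actg1 and Actg2 kept the last places in 5 of 5 libraries.

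**Figure D4:**
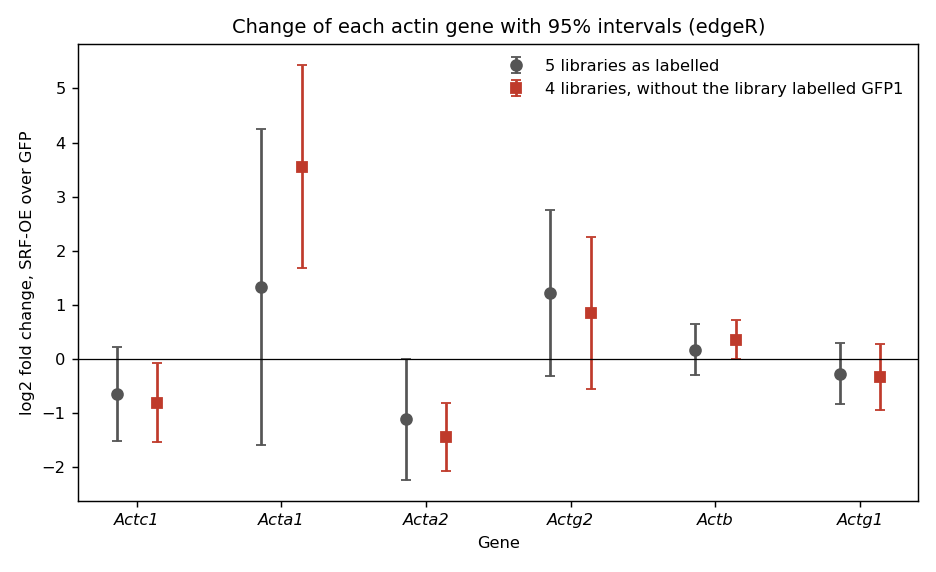
Log2 fold change of each actin gene in SRF-OE over GFP, with 95% intervals from edgeR, for the 5 libraries as labelled (grey circles) and for the 4 without the library labelled GFP1 (red squares). Leaving GFP1 out moves Acta1 from 1.32 to 3.56 and narrows its interval, and all 6 values without GFP1 lie inside the intervals of the 5 libraries.

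**Figure D5:**
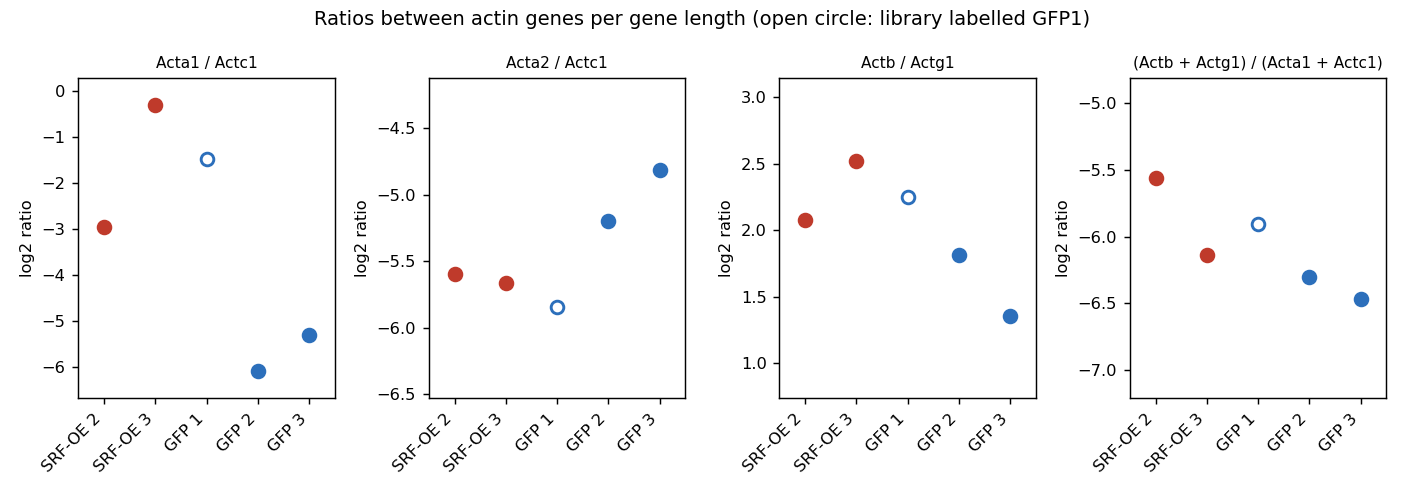
Log2 ratios between actin genes per gene length in each library, SRF-OE in red, GFP in blue and the library labelled GFP1 as an open circle. The ratio of Acta1 to Actc1 spans from -6.09 in GFP2 to -0.30 in SRF-OE replicate 3, far more than the other 3 ratios.

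Genes that work with actin were counted in the same fits, and with 5 libraries edgeR called 0 of the 62 tested. At an unadjusted p under 0.05, 6 of the 62 were higher and 8 lower, against 6.35% and 7.59% of all genes. Of the 26 that DESeq2 gave an adjusted p, it called 0 higher and 1 lower, Twf2, a twinfilin that binds monomers. Among all 1167 genes with an adjusted p, it called 0.943% higher and 18.3% lower. The folding machinery, the chaperonin CCT and prefoldin that bring new actin to its native state, had 0 of 13 members called in either fit, with median log2 fold changes of 0.045 and 0.10 against 0.030 and 0.035 over all genes tested (5 and 4 libraries). Its most abundant members were even across libraries, with Cct8 at 245 and 314 CPM in SRF-OE and 288 to 296 CPM in GFP, and Cct3 at 245 and 334 CPM against 266 to 301 CPM. The 10 actin-related proteins, which nucleate branched filaments or serve in dynactin and chromatin complexes, had 0 members called and medians of -0.09 and -0.11. Actr1a and Actr3, the most abundant of them, had log2 fold changes of -0.15 and -0.06 with 5 libraries.

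Proteins that bind actin monomers and filaments were a list of 21 genes with median log2 fold changes of 0.36 with 5 libraries and 0.53 with 4. Without GFP1, 5 of 21 rose and 0 fell, against 1.98% and 0.97% of all genes tested. In that fit markers of other cell types were also mostly higher, with a positive log2 fold change in 8 of 8 fibroblast (median 0.94), 7 of 7 endothelial (0.80), 5 of 6 pericyte (0.83) and 4 of 5 leukocyte markers (1.00), of which 1, the fibroblast marker Ddr2, was called. Their part in the rise of these 5 genes was not tested. Capg, which caps filament ends, rose by 1.99 on the log2 scale (adjusted p = 0.0423). Tmsb4x (thymosin beta), which sequesters monomers, was at 260 and 238 CPM in SRF-OE, 289 CPM in GFP1, and 110 and 92.9 CPM in GFP2 and GFP3, a rise of 1.30 (adjusted p = 0.0423). Gsn (gelsolin), which severs filaments, rose by 1.23 (adjusted p = 0.0484) and Coro1c by 1.03 (adjusted p = 0.0433). Cfl1, the cofilin found outside muscle, was the fifth, chosen for mention after its value was seen, with 0.76 (adjusted p = 0.0473), while the muscle cofilin Cfl2 had 0.11 and passed no test. As labelled, the 5 libraries gave 1.29 for Capg, 0.60 for Tmsb4x, 0.78 for Gsn, 0.78 for Coro1c and 0.44 for Cfl1, all uncalled.

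Thin filament partners, the tropomyosins, troponins, tropomodulins, leiomodins and nebulins that share the filament with Actc1 and Acta1, were 18 tested genes with medians of -0.16 and -0.01. In the 4 libraries 3 of them rose and 1 fell, against 1.98% and 0.97% of all genes. Tnnt3, the fast skeletal troponin T, was at 4.86 and 22.6 CPM in SRF-OE, 19.6 CPM in GFP1, and 0.138 and 0.0789 CPM in GFP2 and GFP3. With 3 and 1 reads in GFP2 and GFP3, the pooled SRF-OE libraries were 129-fold higher (95% counting interval 50.1 to 475). That interval covers counting error only and not the spread between libraries. The log2 fold change fitted by edgeR in the 4 libraries was 6.83 (SE 1.06, adjusted p = 0.0473). The library labelled GFP1 was thus near SRF-OE replicate 3 for this skeletal muscle gene as for Acta1. Neb (nebulin), the ruler of the skeletal thin filament, rose by 2.14 (adjusted p = 0.0473) and Tpm3 by 1.14 (adjusted p = 0.0499), and Nebl, the cardiac nebulette, fell by 0.86 (adjusted p = 0.0473). Tnnt2, the cardiac troponin T, had a log2 fold change of -0.48 (adjusted p = 0.245). As labelled, the 5 libraries gave 1.04 (SE 1.66) for Tnnt3, 1.44 for Neb, 0.64 for Tpm3 and -0.74 for Nebl, all uncalled.

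The genes most like an actin in their pattern were those with the smallest root mean square difference in log2 CPM, centred over the 5 libraries, among 8522 other genes with a mean of at least 10 CPM. For Acta1 they were Cnksr1 (0.23), Fhl1 (0.26) and Lrat (0.29). Fhl1, a LIM protein of the sarcomere, was at 703 and 2871 CPM in SRF-OE, 1731 CPM in GFP1, and 120 and 138 CPM in GFP2 and GFP3, which is the order of Acta1. For Acta2 they were Eml2 (0.11), Frem2 (0.16) and Ehbp1 (0.16), with Eml2 at 23.1, 16.8, 17.3, 44.1 and 55.4 CPM in the order SRF-OE replicates 2 and 3 and GFP1 to GFP3. For Actc1 they were Idh3b (0.0090), an enzyme subunit of the citric acid cycle, Vav2 (0.013) and Tmtc4 (0.017). Idh3b was at 716 and 520 CPM in SRF-OE and at 732, 1046 and 1133 CPM in GFP. The likeness covers 5 libraries in 2 groups, and all genes of a library share its depth and scaling factor.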

How the data were processed

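RNA from sorted CMs was amplified with SMART-seq, made into Nextera libraries and sequenced single-ended on a NextSeq. According to the submitters' processing notes, reads were aligned to mm10 with STAR 2.5.3a and counted with featureCounts of Subread 1.5.2. The authors deposited raw counts per gene in 1 table, whose remaining numeric column holds gene lengths in bp. Strand and multiply mapped read settings and the read length are not given in the sources used here. Columns were assigned to libraries by name alone, with 0 columns of samples unused, and no library was moved to another group. Whether the names are displaced by 1 column was not tested. The column named for SRF-OE replicate 1 holds lengths, and the library labelled GFP1 has Srf near the SRF-OE level. The design assumed 6 libraries and 5 could be used.

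From the deposited counts, CPM, TPM, shares and ratios were computed here. Groups were compared with edgeR 4.0.16 in R 4.3.3 (filterByExpr, TMM, glmQLFit, glmQLFTest), Benjamini-Hochberg adjustment over all genes tested and a cutoff of 0.05. The SE is the log2 fold change divided by the square root of F. Shares and ratios were compared by exact two-sided permutation over libraries. The fits were run on simulated data with known changes. The checks there concerned the direction and size of these changes and set no limit on false calls. Alternatives were DESeq2 1.42.0, other scalings, other low count filters, leaving out each library, a block for the replicate number, and reads in place of reads per kilobase. Those on the 4 libraries without GFP1 were added after seeing the data, as were the values within the sexes.

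The genes named are the 6 actins, Srf, up to 4 called members of each partner list by size of change or else the 2 most abundant, called, lowest or highest members of marker lists, and the 3 nearest genes of Acta1, Acta2 and Actc1. Cfl1, Cfl2, Myocd, Tnnt2 and Twf2 were picked with their values in view. The actins and all lists were chosen with earlier results of these data known. Positions are from GENCODE M21 (GRCm38, the build called mm10), and promoters from RefSeq on GRCm38.p6. Markers named by the rule whose means are not given elsewhere averaged 1386 CPM (Ryr2), 342 and 16.3 CPM (pericyte, Abcc9 and Kcnj8), 257 and 1.45 CPM (fibroblast, Col3a1 and Tcf21), 117 and 16.0 CPM (endothelial, Kdr and Emcn), and 6.81 and 1.36 CPM (leukocyte, Lyz2 and Ptprc). The fibroblast marker Ddr2 was the 1 called marker outside the smooth muscle list, with a log2 fold change of 1.88 (adjusted p = 0.0423, edgeR) without GFP1.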

Additional observations from a re-analysis of the deposited data

How the results depend on the processing

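Leaving out each library in turn, with a lone SRF-OE library assumed to vary like the GFP libraries, moved the log2 fold change of Acta1 from -0.18 (without SRF-OE replicate 3) to 3.56 (without GFP1), of Acta2 from -1.45 to -0.71, of Actc1 from -0.90 to -0.46, of Actg2 from 0.34 to 1.73, of Actb from 0.029 to 0.35, and of Actg1 from -0.68 to 0.026, with 0 actins called higher and 0 to 1 lower. The Actg1 share of actin signal ranged from -0.079 to 0.11 percentage points and the striated share of all reads from -0.41 to 0.032. DESeq2 gave -1.13 for Acta2 (adjusted p = 0.0423) and -0.66 for Actc1 (adjusted p = 0.0444), 2 actins lower, and no adjusted p for Actg1 and Actg2. Whether the replicate numbers pair the libraries was not settled. Deviations from the group means correlated at 0.372 for number 2 and -0.06 for number 3, and at 0.215 over both in the 4 libraries without GFP1. The deviations of 2 SRF-OE libraries mirror each other, so these values cannot decide the question. Displaced names would change the numbers too. With the replicate number as a block, Acta1 was at 3.24 (adjusted p = 0.0116) and Acta2 at -1.46 (adjusted p = 0.0328), 1 actin was called higher and 1 lower, and 582 genes (4.23%) were higher and 432 (3.14%) lower. In this fit the only library numbered 1 drops out of the contrast, and number and sex cannot be told apart. For shares and ratios the block was the mean difference within numbers 2 and 3. That equals the difference without GFP1, as with 25.5 percentage points for the Acta1 share in both, so it is no separate check.

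In the 4 libraries without GFP1, where 265 genes were higher and 130 lower, DESeq2 gave 3.57 for Acta1 (adjusted p = 0.00871) and -0.82 for Actc1 (adjusted p = 0.000803), with 1 actin higher, 2 lower, and 853 genes higher and 832 lower. No filter on low counts gave 3.56 for Acta1 (adjusted p = 3.21e-76) and -0.83 for Actc1 (adjusted p = 8.38e-05), with 1 actin higher, 2 lower, and 1660 and 1303 genes. Its prior degrees of freedom were infinite, so each gene's own spread had no weight. Upper quartile scaling gave -1.39 for Acta2 (adjusted p = 0.0595), 0 actins lower and 88 and 9 genes, and at least 10 counts in every library gave -1.43 (adjusted p = 0.0600), 0 actins lower and 55 and 9 genes. The block gave 3.24 for Acta1 (adjusted p = 0.0148), 1 actin higher and 547 and 392 genes, and DESeq2's size factors gave 330 and 206 genes. The cause of these shifts was not tested. Actg2 had no value with at least 10 counts in all 5 libraries. Alternatives to the 5-library fit, which include those that left out 1 library, gave 109 fitted values and counts. Of these, 92 kept their direction and side of the cutoff or, for counts, their size. As the 5-library fit called 0 genes, they stayed uncalled or at 0. Of 60 set against the 4-library fit, 35 did so by the same rule. Shares and ratios were compared by direction alone, and 80 of 82 kept it. Some of these could not differ, since the block repeats the values without GFP1. Also, the group difference in a log2 ratio between single genes is the same in reads and reads per kilobase.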
